A study of Mus musculus with 12 samples.

Results

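Leukocytes in a tissue are commonly recognised by the RNA of a small set of genes. Here 35 such genes, chosen by name as markers of leukocytes and macrophages, were followed through kidney tissue, cultured progenitor cells and organoids of the mouse. All 35 were found on the arrays, out of 18193 genes with a probe set of their own, and 58 probe sets named a single gene of the set. They fall into 8 genes shared by most leukocytes, 4 of MHC class II antigen presentation, 3 of complement C1q, 10 of macrophages, 3 Fc receptors and adaptors, 2 of the phagocyte NADPH oxidase, 2 of costimulation and 3 of lymphocytes. RNA was measured on 12 Affymetrix 3' arrays in 6 groups of 2. The groups were tissue of the kidney cortex, tissue of the kidney medulla, progenitor cells derived from cortex, progenitor cells derived from medulla, organoids derived from cortex and organoids derived from medulla. Progenitor cells had been cultured on fibroblast feeder cells, and organoids had been differentiated in a 3D Matrigel gel. The title of the series calls the cells adult renal tubular progenitors and speaks of cloning. The sources used here do not state the strain, age or sex of the mice, the source of the feeder cells, whether those cells were removed before RNA extraction, or whether a culture came from 1 clone. Both arrays of a group are labelled biological replicates without a named animal or culture, so p-values measure only the spread between these samples.

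A resident network of macrophages lies between the tubules and vessels of the kidney. These cells need signalling through the CSF1 receptor and the transcription factor PU.1, take up debris and immune complexes through scavenger and Fc receptors, make complement C1q, and present antigen on MHC class II, whose invariant chain is Cd74. CD45, the phosphatase encoded by Ptprc, is found on nearly all nucleated blood cells and is the usual marker by which leukocytes are told from epithelium.

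Array values below are the deposited log2 signals, always in the order cortex replicates 1 and 2, then medulla replicates 1 and 2. A signal of log2 3.92 is the 25th percentile of all values on the arrays, and lower values hold little information on order. Differences between groups were fitted with limma on log2(signal + 15.1), and the offset makes differences of dim genes look smaller than they are. Each difference is given ± its standard error from the fit. A stage difference averages over both regions and so compares 4 arrays with 4, a region difference compares 2 with 2, and a gene was called when its p-value, adjusted by Benjamini-Hochberg over 13037 genes, was below 0.05. Signals of different probe sets are not comparable as levels, so no gene is set against another here.

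In bulk RNA, fewer cells of a type and less RNA per cell cannot be told apart. Added controls also moved with stage. Poly-A controls, added before labelling, had median log2 signals of 7.96 to 8.83 on tissue arrays, 7.03 to 7.37 on progenitor arrays and 1.21 to 1.88 on organoid arrays, and Gapdh controls read 0.87 to 1.67 higher at the 3' end than at the 5' end on organoid arrays, against -0.41 to 0.18 on the others. For Actb the same measure was 0.94 to 1.63 on tissue arrays and -0.0 to 0.19 on the others. Their part in the stage differences below was not tested. Simple epithelium markers were bright on average at every stage, so they cannot test the label of the tissue. Their mean log2 signal over 12 genes was 10.20 to 11.15 on tissue arrays, 13.18 to 13.39 on progenitor arrays and 11.96 to 12.02 on organoid arrays. None of the 12 lay below log2 3.92 on all arrays of a stage.

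Averaged over the 35 genes, signal was high in tissue and low in both cultures. The mean log2 signal over the 35 was 7.67 to 8.25 on the 4 tissue arrays, 4.49 to 4.85 on the 4 progenitor arrays and 4.25 to 4.51 on the 4 organoid arrays. For the probe set used for each gene, no member lay below log2 3.92 on all 4 tissue arrays. In progenitor cells 4 members did, H2-Aa, C1qa, C1qc and Mpeg1, and in organoids 9 did, H2-Aa, H2-Ab1, H2-Eb1, C1qc, Ms4a7, Ctss, Cd86, Cd3e and Cd3g. A few members ran against this picture: Ptprc, Aif1, Cd14 and Cd68 were higher in organoids than in tissue, and the organoid arrays of Cybb overlapped those of tissue.

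**Figure D1:**
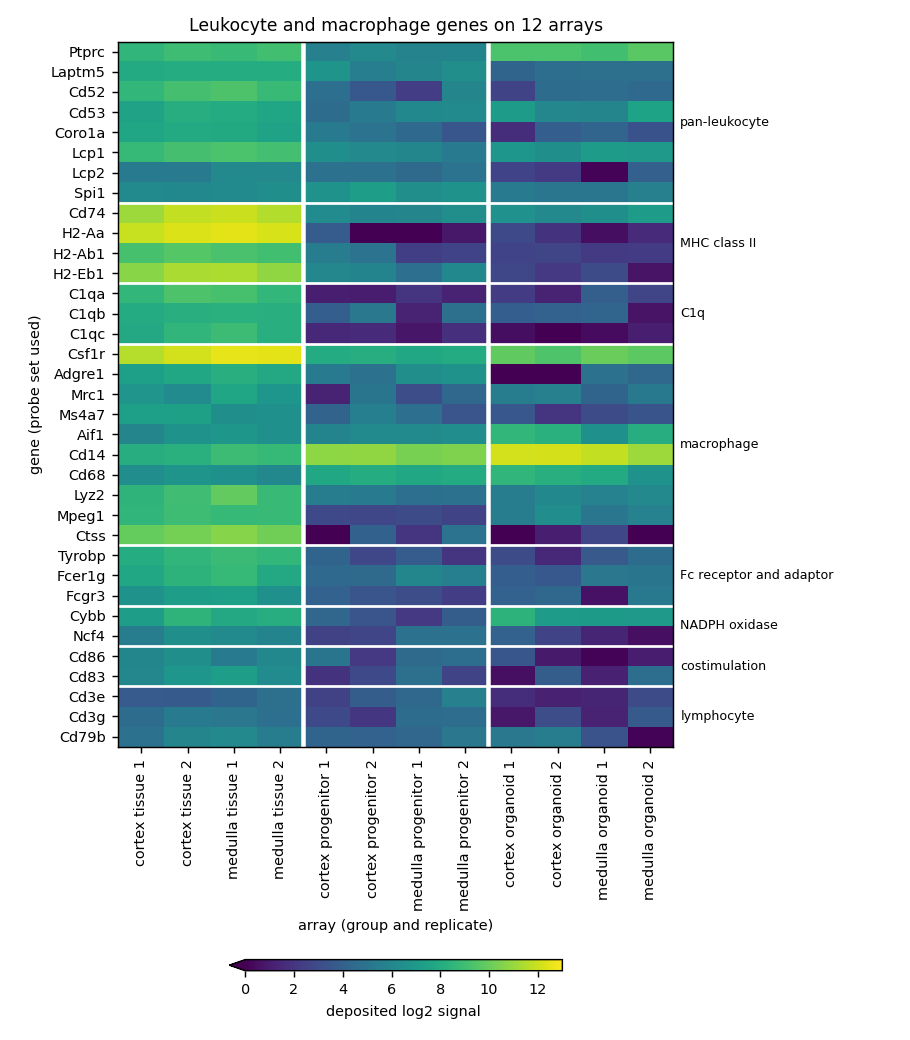
Deposited log2 signal of the probe set used for each of the 35 genes (rows, grouped by role) on each of the 12 arrays (columns); values below 0 take the darkest colour. The tissue columns are bright in most rows, and Ptprc, Csf1r, Aif1, Cd14, Cd68 and Cybb are also bright in most organoid columns.

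Against tissue, progenitor cells were lower in 30 of the 35 genes and higher in 2, Cd14 and Cd68, when all genes entered the fit without a filter. Among all 18193 genes 28.7% were lower and 26.7% higher in that fit. The median offset-scale difference was -2.55 over the 35 and -0.05 over all genes. Every progenitor array lay below every tissue array in 28 of the 35, against 28.5% of all genes. The filtered fit tested only genes that exceeded the median of the array in both replicates of some group. That left 29 members, 16 of them through tissue alone, so a fall among these was tied to the filter. There 25 were lower and 2 higher, beside 35.9% lower and 36.8% higher of all genes tested.

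Organoids against progenitor cells showed a mixed picture. Without a filter 8 of the 35 were higher (22.2% of all genes) and 9 lower (36.4%), with a median difference of -0.11 against -0.23 over all genes. The filtered fit called 9 of 29 higher (28.1% of all genes tested) and 6 lower (44.3%). The share higher was thus near that of all genes. The 6 largest of the rises were those of Ptprc, Cybb, Csf1r, Mpeg1, Aif1 and Cd14, though a second probe set of Csf1r fell, and the 4 largest falls were those of H2-Eb1, Adgre1, Spi1 and Laptm5.

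Organoids stayed well below tissue in most of the genes. Without a filter 30 of the 35 were lower (41.4% of all genes) and 4 higher (25.8%), with a median difference of -2.39 against -0.30 over all genes. Every organoid array lay below every tissue array in 28 of the 35, against 34.8% of all genes. The filtered fit called 24 of 29 lower (46.6% of all genes tested) and 4 higher (33.0%), namely Ptprc, Aif1, Cd14 and Cd68. These 3 stage comparisons share arrays, so their values are placed side by side and are not independent of each other. The scaling of the arrays moved the median of all genes in the organoid comparisons: organoid minus tissue had a median of -0.29, which became -0.39 after quantile normalization and -0.51 after 75th percentile scaling.

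**Figure D2:**
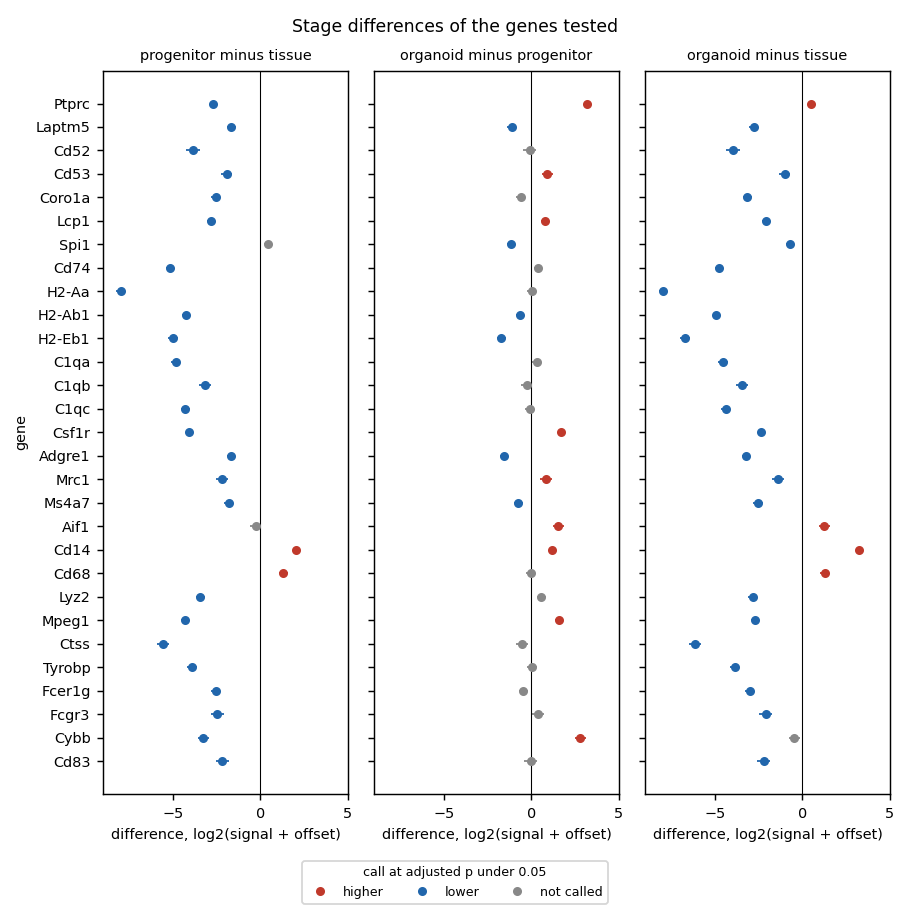
Stage differences (x axis, log2(signal + 15.1), points with standard error bars) of the 29 members tested in limma, 1 panel a comparison, coloured by call at an adjusted p below 0.05. Most points lie left of 0 in the panels against tissue, while Ptprc and Cybb lie at 3.18 and 2.80 in the middle panel.

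Without a filter all 4 MHC class II genes were lower in progenitor cells (28.7% of all genes) and in organoids (41.4%) than in tissue. Of the 4, 2 passed the filter through tissue alone. H2-Aa encodes the alpha chain of I-A, H2-Ab1 its beta chain, H2-Eb1 the beta chain of I-E, and Cd74 the invariant chain that guides class II molecules to the endosome. The sequences upstream of H2-Aa and H2-Eb1 are shown because both genes fell and their promoters hold the same motif, the Y box (CTGATTGG, searched on both strands as CTGATTGG and CCAATCAG), a known element of class II promoters that the factor NF-Y binds. RefSeq (GRCm38.p6) gave promoters for 22 of the 35 genes. In windows of 300 bases, 250 before to 50 after each gene start, the motif was found in 4.097% of all 32851 promoters and, among the 22 matched members, in H2-Aa and H2-Eb1 alone. H2-Ab1 and Cd74 were not among the 22, so their promoters were not searched. The 250 bases before the start are printed 5' to 3' on the gene's strand with the motif in capitals, from chr17:34287824-34288073 (minus strand) for H2-Aa and chr17:34305617-34305866 (plus strand) for H2-Eb1.
H2-Aa: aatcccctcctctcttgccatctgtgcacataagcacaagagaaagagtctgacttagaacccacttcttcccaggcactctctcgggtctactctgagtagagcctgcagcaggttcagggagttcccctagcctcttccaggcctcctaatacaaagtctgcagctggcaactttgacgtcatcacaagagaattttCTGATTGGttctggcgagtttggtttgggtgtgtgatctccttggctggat
H2-Eb1: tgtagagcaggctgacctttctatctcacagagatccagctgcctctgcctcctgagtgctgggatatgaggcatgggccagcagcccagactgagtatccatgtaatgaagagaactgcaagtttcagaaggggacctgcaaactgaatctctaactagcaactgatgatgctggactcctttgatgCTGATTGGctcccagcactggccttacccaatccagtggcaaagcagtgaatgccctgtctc
The motif began at position -51 in H2-Aa and at -62 in H2-Eb1, counted from the gene start. A match of letters is a description and does not show that a factor was bound.

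H2-Aa log2 signals were 11.91, 12.30, 12.49 and 12.19 on tissue arrays, 3.77, -0.56, -0.15 and 0.83 on progenitor arrays and 2.87, 1.91, 0.47 and 1.55 on organoid arrays. Every culture array of this probe set lay below log2 3.92 and every tissue array above log2 11, so the size of the fall rests on the offset. Its difference on the log2(signal + 15.1) scale was -8.00 ± 0.24 for progenitor minus tissue (adjusted p = 4.17e-11), 0.01 ± 0.24 for organoid minus progenitor (adjusted p = 0.974) and -7.99 ± 0.24 for organoid minus tissue (adjusted p = 4.85e-11). The other 3 tested probe sets of H2-Aa fell as well, by 4.06 to 6.88 between tissue and progenitor cells. These probe sets passed the filter through tissue alone, so their fall was tied to it. H2-Eb1 fell in 2 steps. Its log2 signals were 10.68, 11.36, 11.41 and 10.82 on tissue arrays, 6.03, 5.86, 4.73 and 6.06 on progenitor arrays and 2.79, 2.15, 3.01 and 0.69 on organoid arrays, and the 3 stages did not overlap. Progenitor minus tissue was -5.01 ± 0.27 (adjusted p = 7.18e-09), and organoid minus progenitor was -1.72 ± 0.27 (adjusted p = 0.000117).

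H2-Ab1 had log2 signals of 9.21, 9.55, 9.26 and 9.06 on tissue arrays, 5.45, 4.93, 2.39 and 2.60 on progenitor arrays and 2.61, 2.73, 2.19 and 2.25 on organoid arrays. For this probe set the cortex progenitor arrays kept more signal than the medulla progenitor arrays. Its other tested probe sets did not show this. They had 2.14, 1.34, 2.18 and 2.08, and 0.44, 0.03, 2.95 and 0.56, on progenitor arrays, all below log2 3.92. Its difference was -4.27 ± 0.21 for progenitor minus tissue (adjusted p = 3.18e-09), -0.67 ± 0.21 for organoid minus progenitor (adjusted p = 0.0135) and -4.93 ± 0.21 for organoid minus tissue (adjusted p = 8.61e-10). The step from progenitor cells to organoids was called for 1 of its 3 tested probe sets. It was -1.27 ± 0.30 within cortex (adjusted p = 0.00304) and -0.07 ± 0.30 within medulla (adjusted p = 0.857), and the call was lost with the mean of all probe sets (-0.26, adjusted p = 0.178) and without cortex progenitor replicate 1 (-0.58, adjusted p = 0.0585). Cd74 log2 signals were 11.09, 11.83, 11.94 and 11.49 on tissue arrays, 6.29, 5.84, 5.93 and 6.41 on progenitor arrays and 6.60, 6.13, 6.47 and 7.14 on organoid arrays. Culture arrays overlapped each other and lay far below tissue. Organoid minus tissue was -4.80 ± 0.23 (adjusted p = 2.05e-09), and organoid minus progenitor was 0.40 ± 0.23 (adjusted p = 0.139), which was not called.

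C1q is the recognition molecule of the classical complement pathway, assembled from the chains encoded by C1qa, C1qb and C1qc, and macrophages are a main source of it. All 3 passed the filter through tissue alone, so a fall in the filtered fit was tied to it. Without a filter all 3 were lower in progenitor cells (28.7% of all genes) and in organoids (41.4%) than in tissue. None was called between progenitor cells and organoids. The region upstream of C1qc is shown as the C1q promoter that holds a core of the motif of PU.1, the factor encoded by Spi1 (GAGGAAGT, searched on both strands as GAGGAAGT and ACTTCCTC). That core was found in 3.202% of the 32851 promoters and, among the matched members, in C1qc, Cd53 and Ctss. C1qa had no promoter in the table, and C1qb did not hold these letters in its window. The sequence runs 5' to 3' on the gene's strand, from chr4:136892915-136893164 (GRCm38.p6, minus strand), with the motif in capitals on its reverse strand, beginning at position -195.
C1qc: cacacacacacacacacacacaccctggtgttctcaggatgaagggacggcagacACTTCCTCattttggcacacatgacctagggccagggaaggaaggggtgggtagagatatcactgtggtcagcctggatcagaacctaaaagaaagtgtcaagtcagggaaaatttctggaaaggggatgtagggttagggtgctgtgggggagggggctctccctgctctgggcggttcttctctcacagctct
The match began at position -2 in Ctss and at position 6 in Cd53.

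C1qa log2 signals were 8.59, 9.38, 9.24 and 8.63 on tissue arrays, 1.09, 1.01, 2.00 and 1.24 on progenitor arrays and 2.25, 1.25, 3.94 and 2.74 on organoid arrays. All culture arrays lay far under the tissue arrays. Its difference was -4.85 ± 0.26 for progenitor minus tissue (adjusted p = 5.93e-09), 0.31 ± 0.26 for organoid minus progenitor (adjusted p = 0.305) and -4.55 ± 0.26 for organoid minus tissue (adjusted p = 9.65e-09). C1qb had log2 signals of 7.99, 8.15, 8.27 and 8.16 on tissue arrays, 3.87, 5.21, 1.31 and 4.81 on progenitor arrays and 3.87, 4.07, 4.23 and 0.68 on organoid arrays, with a wide spread among culture arrays. For C1qb progenitor minus tissue was -3.17 ± 0.34 (adjusted p = 3.34e-06) and organoid minus progenitor -0.28 ± 0.34 (adjusted p = 0.464). C1qc log2 signals were 7.84, 8.58, 8.89 and 8.22 on tissue arrays, 1.47, 1.58, 0.77 and 1.78 on progenitor arrays and 0.47, -0.51, 0.38 and 1.10 on organoid arrays. No culture array reached log2 2. The difference of C1qc was -4.29 ± 0.25 for progenitor minus tissue (adjusted p = 1.41e-08) and -0.11 ± 0.25 for organoid minus progenitor (adjusted p = 0.701).

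Of the 8 genes shared by most leukocytes, 7 were tested, 2 of them through tissue alone. Without a filter 7 of the 8 were lower in progenitor cells than in tissue (28.7% of all genes), and 7 were lower in organoids than in tissue (41.4%), where Ptprc was higher. Ptprc log2 signals were 8.56, 8.94, 8.77 and 9.07 on tissue arrays, 5.66, 6.12, 5.81 and 5.85 on progenitor arrays and 9.32, 9.31, 9.06 and 9.68 on organoid arrays. The organoid arrays returned to or above the tissue range. Organoid minus tissue was 0.49 ± 0.19 (adjusted p = 0.0316), but the ranges touched, and the call was lost in 10 of 24 alternatives. The difference was 0.05 with the mean of all probe sets (adjusted p = 0.812), 0.28 after quantile normalization (adjusted p = 0.192) and 0.26 after 75th percentile scaling (adjusted p = 0.214). Within cortex it was 0.55 ± 0.27 (adjusted p = 0.0885) and within medulla 0.44 ± 0.27 (adjusted p = 0.163). The call was also lost on leaving out cortex tissue replicate 1 (difference 0.40, adjusted p = 0.120), medulla tissue replicate 1 (0.42, adjusted p = 0.104), cortex organoid replicate 1 (0.49, adjusted p = 0.0671), cortex organoid replicate 2 (0.50, adjusted p = 0.0634) or medulla organoid replicate 2 (0.34, adjusted p = 0.0834). The rise from progenitor cells to organoids kept its call in all 24. A second probe set of Ptprc, between log2 -0.35 and 4.55 on the 12 arrays, was too dim to be tested.

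Lcp1 encodes L-plastin, an actin-bundling protein of blood cells. Its log2 signals were 8.71, 9.19, 9.34 and 9.12 on tissue arrays, 6.46, 6.10, 5.97 and 5.41 on progenitor arrays and 6.82, 6.45, 7.21 and 7.01 on organoid arrays. Organoids lay between the other stages, with progenitor minus tissue at -2.82 ± 0.21 (adjusted p = 1.05e-07) and organoid minus progenitor at 0.75 ± 0.21 (adjusted p = 0.00606). The latter was 0.30 ± 0.29 within cortex, which was not called (adjusted p = 0.384), and 1.19 ± 0.29 within medulla (adjusted p = 0.00372), and the call was lost after quantile normalization (0.42, adjusted p = 0.0978). Cd52, a small surface glycoprotein of lymphocytes and macrophages, had log2 signals of 8.62, 9.16, 9.39 and 8.83 on tissue arrays, 4.74, 3.57, 2.36 and 5.90 on progenitor arrays and 2.67, 4.62, 4.63 and 4.46 on organoid arrays. Its culture arrays were scattered and all lay below tissue. It fell by 3.86 ± 0.39 from tissue to progenitor cells (adjusted p = 2.11e-06), and organoid minus progenitor was -0.11 ± 0.39 (adjusted p = 0.809). Coro1a, which encodes the actin regulator coronin 1A, had log2 signals of 7.69, 7.97, 7.91 and 7.48 on tissue arrays, 5.33, 4.96, 4.44 and 3.46 on progenitor arrays and 1.70, 3.87, 4.26 and 3.29 on organoid arrays. Its culture values overlapped, with organoid minus progenitor at -0.60 ± 0.26 (adjusted p = 0.0543), and organoid minus tissue was -3.15 ± 0.26 (adjusted p = 2.72e-07).

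Spi1 encodes PU.1, the factor on which macrophage development depends. Its log2 signals were 6.16, 6.07, 6.19 and 6.46 on tissue arrays, 6.64, 7.28, 6.44 and 6.64 on progenitor arrays and 5.38, 5.10, 5.11 and 5.68 on organoid arrays. Progenitor cells were not called against tissue (0.46 ± 0.23, adjusted p = 0.0863), and organoids were lower than progenitor cells (-1.16 ± 0.23, adjusted p = 0.000588) and than tissue (-0.70 ± 0.23, adjusted p = 0.0132). Laptm5, a lysosomal membrane protein of blood cells, ran from 7.93 to 8.07 in tissue over 5.58 to 6.74 in progenitor cells to 4.19 to 4.82 in organoids on the log2 scale. It was lower at each step, by 1.66 ± 0.25 (adjusted p = 6.50e-05) and 1.13 ± 0.25 (adjusted p = 0.00133) for the probe set used, but its other 2 tested probe sets were not called between progenitor cells and organoids. The tetraspanin gene Cd53 ran from 7.51 to 8.08 in tissue to 4.60 to 6.18 in progenitor cells and 5.94 to 7.55 in organoids. Organoid minus progenitor was 0.92 ± 0.33 for Cd53 (adjusted p = 0.0247). Leaving out cortex progenitor replicate 1, medulla progenitor replicate 1 or 2, cortex organoid replicate 1 or medulla organoid replicate 2 ended that call. The differences were then 0.57 to 0.94. The call was also lost after quantile normalization (0.66, adjusted p = 0.0655) and within medulla (0.55, adjusted p = 0.321). Organoid minus tissue was -1.02 ± 0.33 (adjusted p = 0.0129). That call was lost without cortex tissue replicate 2 (-0.89) or cortex organoid replicate 2 (-0.78). It was lost within cortex (-1.08, adjusted p = 0.0538) and within medulla (-0.96, adjusted p = 0.0834) as well. Lcp2, an adaptor of T cell and platelet receptors, stayed under the filter, at 5.43 to 6.13 in tissue, 4.47 to 4.93 in progenitor cells and 0.15 to 4.01 in organoids.

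Among the 10 macrophage genes, 7 were lower and 2 higher in progenitor cells than in tissue without a filter (28.7% and 26.7% of all genes), and 7 were lower and 3 higher in organoids than in tissue (41.4% and 25.8%). Mrc1, Ms4a7, Lyz2, Mpeg1 and Ctss passed the filter through tissue alone. Ctss encodes the endosomal protease cathepsin S, which trims the invariant chain. Its log2 signals were 9.91, 10.30, 10.66 and 10.18 on tissue arrays, -0.12, 4.04, 1.96 and 4.94 on progenitor arrays and -0.24, 1.10, 2.75 and -0.28 on organoid arrays. Both cultures lay far under tissue, by 5.59 ± 0.33 in progenitor cells (adjusted p = 1.28e-08) and by 6.14 ± 0.33 in organoids (adjusted p = 5.02e-09). Mpeg1 encodes perforin-2, a pore-forming protein of phagocytes, and had log2 signals of 8.54, 8.96, 8.70 and 8.78 on tissue arrays, 2.86, 2.78, 2.95 and 2.69 on progenitor arrays and 5.47, 6.35, 5.11 and 5.76 on organoid arrays. The 3 stages did not overlap, with organoids in between. Mpeg1 in progenitor minus tissue was -4.32 ± 0.24 (adjusted p = 7.87e-09) and organoid minus progenitor 1.59 ± 0.24 (adjusted p = 7.50e-05).

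Lyz2, the lysozyme gene of myeloid cells, had log2 signals of 8.45, 9.02, 9.88 and 8.74 on tissue arrays, 5.45, 5.31, 4.75 and 4.90 on progenitor arrays and 5.52, 6.08, 5.75 and 6.13 on organoid arrays. Every organoid array lay above every progenitor array, but the difference of 0.57 ± 0.27 was not called (adjusted p = 0.0749), whereas progenitor minus tissue was -3.43 ± 0.27 (adjusted p = 2.02e-07). Adgre1 encodes F4/80, the classic marker of mouse macrophages, and its log2 signals were 7.34, 7.82, 8.15 and 7.83 on tissue arrays, 5.39, 4.90, 6.43 and 6.66 on progenitor arrays and -0.26, -0.53, 4.87 and 4.33 on organoid arrays. It was lower at each step, by 1.67 ± 0.23 (adjusted p = 2.81e-05) and 1.56 ± 0.23 (adjusted p = 5.40e-05), and cortex organoids were dimmest. Mrc1, the mannose receptor gene, ran from 6.28 to 7.67 in tissue to 1.24 to 5.03 in progenitor cells and 4.19 to 5.68 in organoids on the log2 scale. Its organoid minus progenitor difference of 0.82 ± 0.35 (adjusted p = 0.0496) sat at the threshold, and the call was lost in 19 of 23 alternatives, the leaving out of each array other than cortex progenitor replicate 2, medulla progenitor replicate 2 and medulla organoid replicate 1 included. Without cortex progenitor replicate 1, the dimmest array at log2 1.24, that difference was 0.46 (adjusted p = 0.227). Ms4a7, a tetraspan gene of macrophages, ran from 6.49 to 7.38 in tissue to 3.45 to 5.60 and 1.96 to 3.51 in the cultures. It fell by 1.82 ± 0.28 from tissue to progenitor cells (adjusted p = 8.55e-05) and by 0.74 ± 0.28 from there to organoids (adjusted p = 0.0315). The latter call was lost in 8 of 22 alternatives. It was lost without cortex progenitor replicate 2, medulla progenitor replicate 1, cortex organoid replicate 2 or medulla organoid replicate 1. The differences were then -0.70 to -0.50. Quantile normalization (adjusted p = 0.0583), an offset of the median signal (adjusted p = 0.0686) and the compared groups alone (adjusted p = 0.0535) ended it too. Within cortex the difference was -1.02 ± 0.40 (adjusted p = 0.0410), and within medulla -0.46 (adjusted p = 0.332), which was not called.

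Cd14, the coreceptor for bacterial lipopolysaccharide, moved the other way. Its log2 signals were 8.12, 8.27, 8.93 and 8.71 on tissue arrays, 10.79, 10.82, 10.34 and 10.48 on progenitor arrays and 12.13, 12.15, 11.83 and 11.10 on organoid arrays. No stage overlapped another, and each step was a rise, by 2.06 ± 0.14 from tissue to progenitor cells (4.17-fold, adjusted p = 6.32e-08) and by 1.18 ± 0.14 from there to organoids (2.27-fold, adjusted p = 1.15e-05). Cd68, a lysosomal glycoprotein gene best known from macrophages, had log2 signals of 6.36, 6.74, 6.53 and 6.08 on tissue arrays, 7.76, 8.03, 7.78 and 8.02 on progenitor arrays and 8.57, 8.14, 7.93 and 6.69 on organoid arrays. Cultures were above tissue except for medulla organoid replicate 2, which lay within the tissue range. Progenitor minus tissue was 1.32 ± 0.26 (adjusted p = 0.000572) and organoid minus tissue 1.27 ± 0.26 (adjusted p = 0.000649). Aif1, which encodes the actin-binding protein IBA1 of macrophages and microglia, had log2 signals of 5.93, 6.63, 6.90 and 6.51 on tissue arrays, 5.89, 6.15, 6.22 and 6.39 on progenitor arrays and 8.62, 8.27, 6.50 and 8.12 on organoid arrays. Organoids stood above both other stages except for medulla organoid replicate 1, which fell inside the tissue range, and organoid minus progenitor was 1.54 ± 0.30 (adjusted p = 0.000625). The rise was 2.18 ± 0.43 within cortex (adjusted p = 0.000873), while within medulla the difference was 0.90 ± 0.43 and was not called (adjusted p = 0.0870). Organoid minus tissue for Aif1 was 1.26 ± 0.30 (adjusted p = 0.00221), with 0.56 ± 0.43 within medulla (adjusted p = 0.263).

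**Figure D3:**
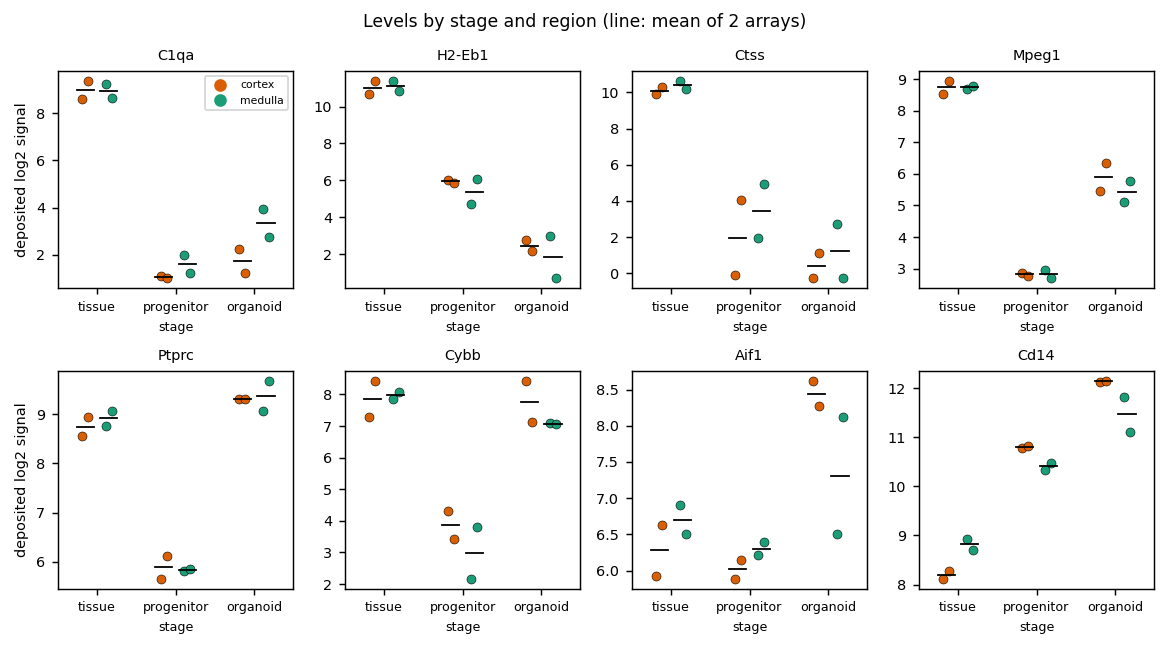
Deposited log2 signal (y axis, a scale of its own in each panel) of 8 members by stage (x axis); points are arrays, coloured by region, and bars are the mean of the 2 arrays of a group. C1qa, H2-Eb1 and Ctss stay low in both cultures, Mpeg1 rises in part in organoids, Ptprc and Cybb reach the tissue range again, and Cd14 rises at each step.

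All 3 Fc receptor and adaptor genes passed the filter through tissue alone, so a fall in the filtered fit was tied to it. Without a filter all 3 were lower than in tissue in progenitor cells (28.7% of all genes) and in organoids (41.4%). Tyrobp (DAP12) and Fcer1g are adaptors that pass signals from activating receptors of myeloid cells, and Fcgr3 encodes an Fc receptor for IgG. Tyrobp log2 signals were 8.04, 8.54, 8.85 and 8.62 on tissue arrays, 4.21, 2.77, 3.80 and 1.98 on progenitor arrays and 2.96, 1.47, 3.61 and 4.60 on organoid arrays. Culture arrays overlapped and lay below all tissue arrays. It fell by 3.91 ± 0.27 from tissue to progenitor cells (adjusted p = 5.75e-08), and organoid minus progenitor was 0.03 ± 0.27 (adjusted p = 0.933). Fcer1g had log2 signals of 7.78, 8.39, 8.69 and 7.87 on tissue arrays, 4.45, 4.51, 5.98 and 5.63 on progenitor arrays and 3.88, 3.59, 5.13 and 5.04 on organoid arrays, lower in cortex than in medulla cultures. It fell by 2.56 ± 0.25 from tissue to progenitor cells (adjusted p = 1.30e-06), and organoid minus progenitor was -0.47 ± 0.25 (adjusted p = 0.106). Fcgr3 log2 signals were 6.62, 7.26, 7.33 and 6.54 on tissue arrays, 4.11, 3.41, 3.05 and 2.36 on progenitor arrays and 4.11, 4.35, 0.65 and 5.28 on organoid arrays. The medulla organoid arrays lay far apart, and progenitor minus tissue was -2.46 ± 0.35 (adjusted p = 4.81e-05).

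Cybb encodes gp91phox, the catalytic subunit of the phagocyte NADPH oxidase, and Ncf4 encodes its cytosolic subunit p40phox. Cybb log2 signals were 7.29, 8.43, 7.86 and 8.09 on tissue arrays, 4.31, 3.44, 2.17 and 3.82 on progenitor arrays and 8.41, 7.14, 7.10 and 7.05 on organoid arrays. The gene was low in progenitor cells alone, and organoids overlapped tissue. Progenitor minus tissue was -3.26 ± 0.32 (adjusted p = 1.57e-06), organoid minus progenitor was 2.80 ± 0.32 (adjusted p = 7.26e-06) and organoid minus tissue was -0.46 ± 0.32 (adjusted p = 0.204), which was not called. The rise into organoids was 2.96 ± 0.45 within cortex (adjusted p = 0.000132) and 2.64 ± 0.45 within medulla (adjusted p = 0.000313). Ncf4 stayed under the filter and ran from 5.49 to 6.46 in tissue to 2.58 to 4.86 in progenitor cells and 0.53 to 4.08 in organoids. In the fit without a filter Ncf4 was lower in organoids than in tissue (-1.90 ± 0.25, adjusted p = 2.32e-05) and not called against progenitor cells (-0.53 ± 0.25, adjusted p = 0.0886).

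Of the 5 costimulation and lymphocyte genes only Cd83 passed the filter, through tissue alone. Cd83, a surface protein of mature dendritic cells, had log2 signals of 6.03, 6.83, 7.29 and 6.26 on tissue arrays, 1.91, 2.89, 4.81 and 2.67 on progenitor arrays and 0.55, 3.85, 1.19 and 4.72 on organoid arrays. It fell by 2.17 ± 0.38 from tissue to progenitor cells (adjusted p = 0.000234), and organoid minus progenitor was -0.04 ± 0.38 (adjusted p = 0.931). Cd86, a ligand of CD28 on antigen-presenting cells, did not pass the filter and ran from 5.37 to 6.47 in tissue to 2.18 to 5.06 and 0.14 to 3.48 in the cultures. The T cell receptor subunits Cd3e and Cd3g and the B cell receptor subunit Cd79b also stayed under it, with tissue signals of 3.66 to 4.80, 4.59 to 5.37 and 4.84 to 6.14. In the fit without a filter Cd3e was not called between tissue and progenitor cells (0.08 ± 0.25, adjusted p = 0.818), while Cd3g (-0.70 ± 0.25, adjusted p = 0.0291) and Cd79b (-0.78 ± 0.28, adjusted p = 0.0325) were lower.

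Several members were read by more than 1 probe set. The fit on every probe set tested 44 of the 58, and 8 members had more than 1. Progenitor minus tissue gave the same call in all tested probe sets of 8 of the 8, organoid minus tissue in 7 and organoid minus progenitor in 5. The tested probe sets of H2-Aa, H2-Ab1, C1qb and Coro1a passed the filter through tissue alone, so their shared fall was tied to it. Dimmer probe sets, such as the second of Ptprc, were not compared. Among all 24203 probe sets 30.2% were lower and 38.8% higher in progenitor cells than in tissue, 37.6% lower and 34.1% higher in organoids than in progenitor cells, and 38.3% lower and 41.1% higher in organoids than in tissue, and p-values of single probe sets were adjusted over all of them. Cybb was higher in organoids than in progenitor cells in each of its 3 probe sets, by 1.67 ± 0.28, 2.80 ± 0.32 and 1.43 ± 0.32.

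Csf1r, which encodes the receptor for CSF1 and IL-34, gave opposite calls. The probe set used, 1419872_at, had log2 signals of 11.56, 12.13, 12.50 and 12.46 on tissue arrays, 8.01, 8.12, 7.82 and 8.01 on progenitor arrays and 9.84, 9.41, 10.02 and 9.74 on organoid arrays. It placed organoids between the other stages, with organoid minus progenitor at 1.70 ± 0.15 (adjusted p = 5.55e-07). Probe set 1423593_a_at had log2 signals of 9.21, 9.45, 9.85 and 9.52 on tissue arrays, 7.10, 7.06, 7.01 and 6.91 on progenitor arrays and 6.46, 6.31, 6.23 and 5.75 on organoid arrays and placed organoids lowest, at -0.72 ± 0.18 (adjusted p = 0.00375). Probe set 1419873_s_at was not called (0.05 ± 0.26, adjusted p = 0.885), and the mean of all probe sets was not called either (0.34, adjusted p = 0.0789). All 3 were lower in both cultures than in tissue. Progenitor minus tissue was -4.09 ± 0.15, -3.23 ± 0.26 and -2.35 ± 0.18. Lcp1 differed in organoids: its other probe set, 1448160_at, ran from 7.74 to 8.09 in tissue, 5.19 to 6.07 in progenitor cells and 6.85 to 8.73 in organoids, so that organoid minus tissue was -0.04 ± 0.24 (adjusted p = 0.886) against -2.08 ± 0.21 for the probe set used (adjusted p = 1.46e-06).

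**Figure D4:**
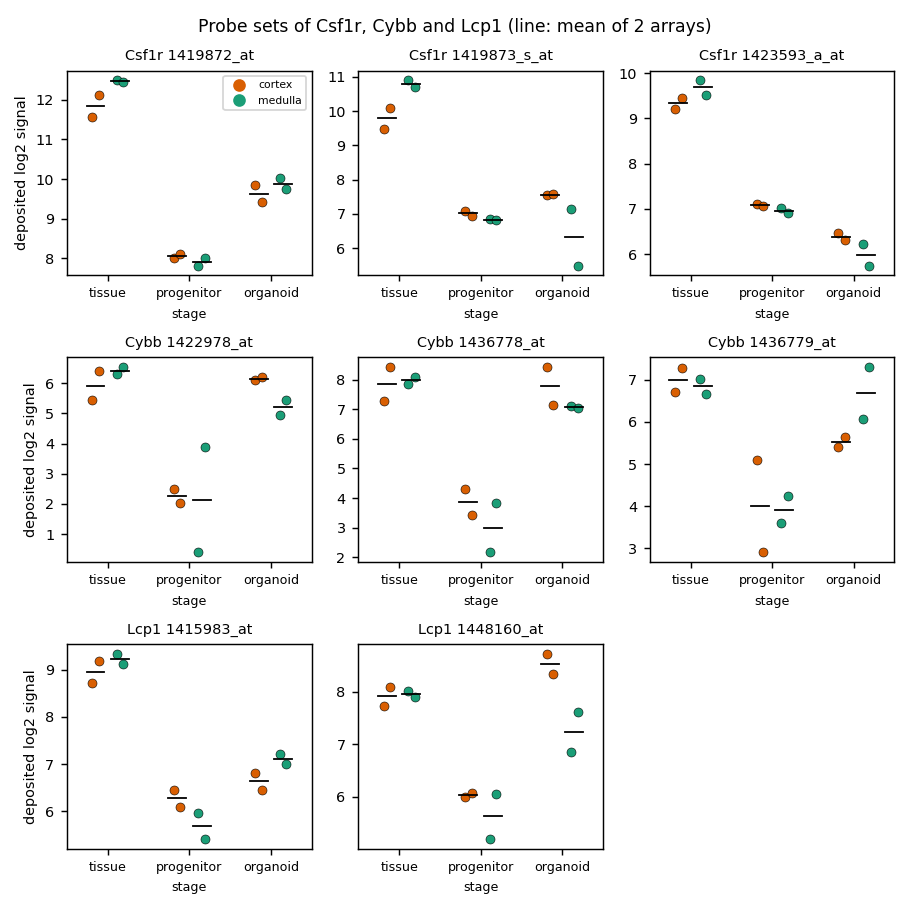
Deposited log2 signal (y axis, a scale of its own in each panel) of each tested probe set of Csf1r, Cybb and Lcp1 by stage (x axis); points are arrays, coloured by region, and bars are the mean of the 2 arrays of a group. Csf1r 1419872_at is higher in organoids than in progenitor cells and 1423593_a_at lower, while the 3 probe sets of Cybb share 1 pattern.

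Few of these genes were called between cortex and medulla. In tissue limma called 0 of 29 members between the regions, beside 0.338% of all genes tested, and 2 had an unadjusted p below 0.05 (9.07% of all genes), Csf1r (0.63 ± 0.21, adjusted p = 0.322) and Cd14 (0.60 ± 0.20, adjusted p = 0.344), both higher in medulla. In progenitor cells it also called 0 of 29, beside 0.314%, and 3 had an unadjusted p below 0.05 (4.92% of all genes). These were H2-Ab1 (-1.32 ± 0.30, adjusted p = 0.136), Adgre1 (1.10 ± 0.32, adjusted p = 0.337) and Fcer1g (0.93 ± 0.35, adjusted p = 0.724). For H2-Ab1 this holds for the probe set used, and its other tested probe sets lay below log2 3.92 on all progenitor arrays. Organoids gave 1 member higher in medulla, beside 7.94% of all genes tested, and 1 lower, beside 10.0%. Adgre1 was the higher, at 1.31 ± 0.32 (adjusted p = 0.0155), with both cortex organoid arrays below log2 0 and both medulla organoid arrays above log2 4. Cd14 was the lower, at -0.67 ± 0.20 (adjusted p = 0.0382). The call for Adgre1 was lost without cortex organoid replicate 1 (adjusted p = 0.0621) or 2 (adjusted p = 0.0702). That for Cd14 was lost when any array other than medulla tissue replicates 1 and 2 and medulla organoid replicate 1 was left out, and without medulla organoid replicate 2 the difference was -0.31 (adjusted p = 0.124). Fibroblast and mesenchyme markers also differed between the organoid groups, with 10 of 12 higher in medulla and a median difference of 2.16, and their part in the calls for Adgre1 and Cd14 was not tested.

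Whether a stage difference itself depended on region was tested with interaction terms. For progenitor minus tissue limma called 0 of 29 members, beside 0.284% of all genes tested, with 3 at an unadjusted p below 0.05 (7.16% of all genes), which were Cd14 (-0.98 ± 0.28, adjusted p = 0.318), H2-Ab1 (-1.11 ± 0.43, adjusted p = 0.557) and Csf1r (-0.77 ± 0.29, adjusted p = 0.544). For organoid minus progenitor it called 0 of 29, beside 4.10%, with H2-Ab1 alone at an unadjusted p below 0.05, as were 19.7% of all genes (1.20 ± 0.43, adjusted p = 0.138). The H2-Ab1 values here are those of the probe set used, whose gap between the progenitor groups its other tested probe sets did not show. Progenitor minus tissue had a median of -2.85 within cortex and -3.20 within medulla for the members tested. Within each region 25 of 29 were lower, beside 30.6% of all genes tested within cortex and 31.1% within medulla. Of the 29, 16 passed the filter through tissue alone, so a fall among these was tied to it.

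The 2 tissue arrays of a region differed in most of these genes in 1 direction. In cortex tissue 27 of the 29 members tested were higher in replicate 2 than in replicate 1, with a median difference of 0.46 on the log2(signal + 15.1) scale, while 53.7% of all genes were higher there. In medulla tissue only 5 of the 29 were higher in replicate 2, with a median of -0.30, against 51.0% of all genes. Ptprc, for example, had 8.56 and 8.94 in cortex tissue, and Lyz2 had 9.88 and 8.74 in medulla tissue. The shift was not particular to leukocyte genes. Of 12 endothelial markers 12 were higher in replicate 2 of cortex tissue (median 0.56) and 9 were lower in replicate 2 of medulla tissue (median -0.44), and of 12 fibroblast and mesenchyme markers 9 were higher (median 0.74) and 8 lower (median -0.56). Simple epithelium markers moved less. In replicate 2, 11 of the 12 were higher in cortex tissue (median 0.19) and 7 lower in medulla tissue (median -0.08). Medians of the members lay between -0.06 and 0.14 in the progenitor and organoid groups, where 14 of 29 were higher in replicate 2 of cortex progenitor cells, 20 in medulla progenitor cells, 12 in cortex organoids and 16 in medulla organoids, and 45.6% to 56.4% of all genes. Without cortex tissue replicate 1 the progenitor minus tissue counts were unchanged at 25 lower and 2 higher, as they were when any other single array was left out.

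**Figure D5:**
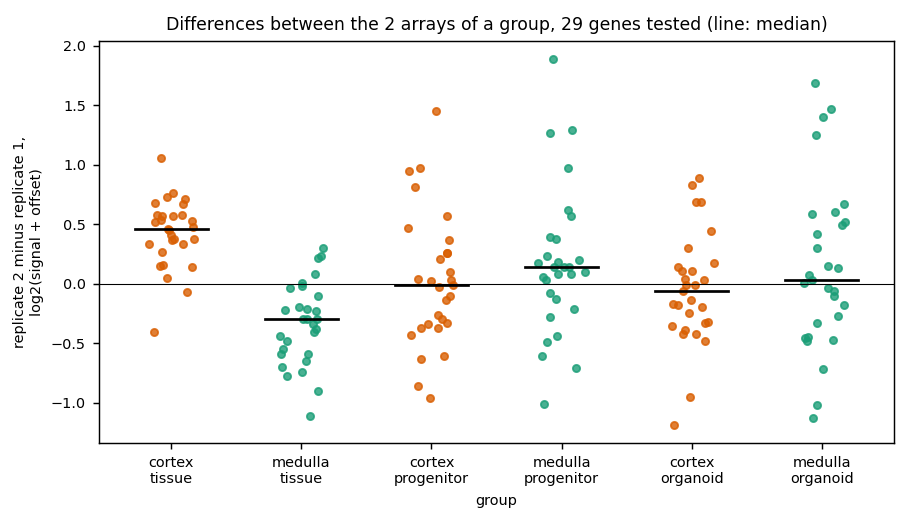
Difference between the 2 arrays of each group (y axis, replicate 2 minus replicate 1, log2(signal + 15.1)); each point is 1 of the 29 members tested and bars are medians. Points of cortex tissue lie mostly above 0 (median 0.46) and those of medulla tissue mostly below 0 (median -0.30).

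Further genes of leukocytes were read from lists of known markers. Of 36 further macrophage and monocyte genes, 33 had a probe set and 16 were tested. Without a filter 22 of the 33 were lower (28.7% of all genes) and 2 higher (26.7%) in progenitor cells than in tissue. In organoids against tissue 26 were lower (41.4%) and 1 higher (25.8%). Of the 16 tested 13 were lower and 1 higher in each of these comparisons, beside 35.9% and 46.6% lower and 36.8% and 33.0% higher of all genes tested. Several of the 16, such as Fcgr2b, Ly86 and Ms4a6c, passed the filter through tissue alone, so their fall there was tied to it. Fcgr2b, the inhibitory Fc receptor gene, which endothelium also expresses, was -5.40 ± 0.26 in progenitor minus tissue (adjusted p = 2.27e-09). Ly86, a partner of the receptor RP105, was -3.50 ± 0.33 (adjusted p = 1.12e-06). Sirpa, the receptor for CD47, was -3.47 ± 0.19 (adjusted p = 7.46e-09) and then 2.00 ± 0.19 from progenitor cells to organoids (adjusted p = 1.56e-06). In that step 2 of the 16 were higher and 4 lower, beside 28.1% and 44.3% of all genes tested.

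Of 20 further genes shared by leukocytes 18 had a probe set and 8 were tested. Without a filter 13 of the 18 were lower (28.7% of all genes) and 1 higher (26.7%) in progenitor cells than in tissue. Of the 8 tested 7 were lower (35.9% of all genes tested) and 1 higher (36.8%). Some of the 8, such as Itgb2 and Ikzf1, passed the filter through tissue alone. Between progenitor cells and organoids 2 of the 8 were higher (28.1% of all genes tested) and 3 lower (44.3%), with a median of -0.53 against -0.29 over all genes tested. Ptpn22, Ptpn6 and Vav1 were the genes that fell there, by 3.59 ± 0.26, 1.47 ± 0.23 and 1.15 ± 0.21 (adjusted p = 1.33e-07, 0.000121 and 0.000364). Itgal, the alpha chain of the integrin LFA-1, had log2 signals of 6.82, 6.68, 6.51 and 6.30 on tissue arrays, 3.30, 1.98, 1.29 and 3.27 on progenitor arrays and 8.05, 8.41, 6.11 and 6.56 on organoid arrays. Its organoid arrays lay above its progenitor arrays, and organoid minus progenitor was 3.03 ± 0.23 (adjusted p = 2.45e-07). Ikzf1, a transcription factor gene of lymphoid development, was -2.66 ± 0.26 in progenitor minus tissue (adjusted p = 1.72e-06). Ptpn22, which encodes a phosphatase of lymphocyte signalling, was bright in progenitor cells instead, at 10.29 to 10.88 against 5.20 to 6.16 in tissue and 4.92 to 8.08 in organoids on the log2 scale. Of 14 class II accessory and dendritic cell genes 12 had a probe set and 5 were tested. Without a filter 7 of the 12 were lower (28.7% of all genes) and 1 higher (26.7%) in progenitor cells than in tissue. Between progenitor cells and organoids 4 were higher (22.2%) and 4 lower (36.4%), with a median of -0.28. Of the 5 tested 3 were lower (35.9% of all genes tested) and 1 higher (36.8%) in progenitor cells than in tissue. In organoids against progenitor cells 3 were higher (28.1%) and 2 lower (44.3%). H2-DMa, which loads peptides onto class II, was -3.08 ± 0.39 in progenitor minus tissue (adjusted p = 1.45e-05) and 1.65 ± 0.39 in organoid minus progenitor (adjusted p = 0.00213). Cd40, a costimulatory receptor gene, was 2.19 ± 0.22 in organoid minus progenitor (adjusted p = 2.84e-06), while Cd80 fell by 0.95 ± 0.36 (adjusted p = 0.0311) and Cd209a by 1.14 ± 0.34 (adjusted p = 0.00871). Zbtb46, a dendritic cell factor that passed the filter through tissue alone, was -2.23 ± 0.28 in progenitor minus tissue (adjusted p = 1.73e-05).

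Markers of endothelium fell with the members, and most markers of fibroblasts and epithelium were higher in progenitor cells than in tissue. Without a filter all 12 endothelial markers were lower in progenitor cells (28.7% of all genes) and in organoids (41.4%) than in tissue. Their mean log2 signal was 9.31 to 10.11 in tissue, 4.58 to 5.44 in progenitor cells and 3.31 to 4.07 in organoids. Plvap, Emcn and Tek, which passed the filter through tissue alone, fell most, by 6.88 ± 0.27, 5.87 ± 0.26 and 5.21 ± 0.28 between tissue and progenitor cells. Pecam1 and Tek lay below log2 3.92 on all organoid arrays. Of 12 fibroblast and mesenchyme markers 8 were higher (36.8% of all genes tested) and 3 lower (35.9%) in progenitor cells than in tissue. In organoids against progenitor cells 1 was higher (28.1%) and 10 lower (44.3%). Their mean log2 signal was 7.96 to 8.72 in tissue, 8.90 to 9.24 in progenitor cells and 5.51 to 8.53 in organoids. Simple epithelium markers were higher in progenitor cells than in tissue for 11 of 12, beside 36.8% of all genes tested. The part of these shifts in the differences of the 35 genes was not tested.

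Few neutrophil, lymphocyte and erythroid genes passed the filter. In the neutrophil and mast cell list 5 of 13 genes with a probe set were tested, and 3 were higher and 2 lower in organoids than in progenitor cells, beside 28.1% and 44.3% of all genes tested. Without a filter 4 were higher and 3 lower of the 13, beside 22.2% and 36.4% of all genes. S100a8 log2 signals were 6.29, 5.77, 5.84 and 5.67 on tissue arrays, 4.86, 5.17, 5.92 and 6.08 on progenitor arrays and 13.71, 13.52, 13.62 and 13.37 on organoid arrays, and S100a9 followed with 4.16, 4.92, 6.40 and 4.32 on tissue arrays, 1.93, 2.73, 1.36 and 0.68 on progenitor arrays and 12.05, 12.10, 11.32 and 11.48 on organoid arrays. Both encode subunits of calprotectin, abundant in neutrophils and also made by some epithelia, and both stood far above the other stages in organoids. Organoid minus progenitor was 7.62 ± 0.16 for S100a8 (adjusted p = 1.25e-11), 7.52 ± 0.29 for S100a9 (adjusted p = 1.38e-09) and 3.74 ± 0.20 for Ltf, the lactoferrin gene (adjusted p = 1.38e-08). Mmp9, a secreted protease gene, fell by 2.01 ± 0.23 (adjusted p = 9.00e-06) and Ngp, a neutrophil granule gene, by 0.84 ± 0.24 (adjusted p = 0.00708). The neutrophil granule genes Mpo and Elane were not tested, with organoid signals of -1.11 to 3.04 and 3.38 to 4.61.

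Of 19 T and NK cell genes with a probe set 4 were tested. In organoids against progenitor cells 2 were higher and 2 lower, beside 28.1% and 44.3% of all genes tested. Cd247, the zeta chain of the T cell receptor, was 4.51 ± 0.25 (adjusted p = 1.79e-08), Prf1, the perforin gene, was 3.31 ± 0.24 (adjusted p = 1.44e-07), and Zap70, the kinase that binds the zeta chain, was -2.82 ± 0.44 (adjusted p = 0.000105). Cd3e and Cd3g, by contrast, lay below log2 3.92 on every organoid array. In the B and plasma cell list 3 of 11 genes were tested. Without a filter 2 of the 11 were lower (28.7% of all genes) and 1 higher (26.7%) in progenitor cells than in tissue. Jchain, which joins polymeric immunoglobulins, was -5.48 ± 0.23 in progenitor minus tissue (adjusted p = 8.56e-10), Blnk 1.57 ± 0.15 (adjusted p = 1.11e-06) and Cd72 -1.32 ± 0.42 (adjusted p = 0.0129). Jchain and Cd72 passed the filter through tissue alone, so their fall there was tied to it. Of 5 erythroid genes with a probe set, 4 were lower than in tissue without a filter in progenitor cells (28.7% of all genes) and 4 in organoids (41.4%). The 3 tested passed the filter through tissue alone. All 3 were lower in both cultures, Slc4a1 by 5.87 ± 0.26, Alas2 by 3.50 ± 0.33 and Klf1 by 2.53 ± 0.41 in progenitor cells.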

How the data were processed

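RNA of mouse kidney tissue, progenitor cells and organoids was measured on 12 arrays. The authors deposited log2 signals per probe set, made with MAS5 per the submitters' processing notes (version not given in the sources used here). Each array's mean unlogged signal, trimmed by 2% at each end, was 500. Detection calls were not used here. Of 45101 probe sets, 34958 had 1 gene symbol (platform annotation), 932 several and 9211 none, 64 controls were left out, and 34741 matched RefSeq by gene ID. Signals were unlogged, 15.1 (the 25th percentile) was added and log2 taken. The probe set with the highest mean stood for each of 18193 genes, of which 13037 exceeded the median of the array in both replicates of some group and were tested in limma 3.58.1 (R 4.3.3), with 6 group means, 6 residual degrees of freedom, a variance trend, two-sided tests and Benjamini-Hochberg adjustment at 0.05. The model was tested on simulated data. Precision is limited by the small number of arrays.

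The members, lists and naming rule were chosen with earlier results of these data known. Values were given by array for up to 4 members of a role with the largest stage differences and for members called against most of their role, and for up to 3 called genes of each other list by the largest difference. Nothing in the labels ties samples of equal replicate number to 1 animal or culture, so no replicate block was used.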

Additional observations from a re-analysis of the deposited data

How the results depend on the processing

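Of 72 calls of single members, 58 kept direction and call under every alternative run, 14 lost the call under at least 1 and 0 reversed. With the filter set on the mean over 12 arrays, 12 members were tested. Those called lower were 9 for progenitor minus tissue (32.7% of all genes), 2 for organoid minus progenitor (45.7%) and 7 for organoid minus tissue (43.3%). A high tissue signal could still carry a gene past this filter. It kept Lyz2, which had passed the main filter through tissue alone. Within medulla 2 members were higher in organoids than in tissue. For medulla minus cortex in organoids, 0 were higher with an offset of the median signal, the mean filter or the compared groups alone, and 0 were lower with 75th percentile scaling, the compared groups alone or no variance trend, against 2 lower with no filter or every probe set. Without a variance trend 1 member was lower in medulla progenitor cells and 1 was called in the region dependence of organoid minus progenitor. Leaving out 1 array gave 2 to 2 higher and 25 to 25 lower for progenitor minus tissue, 7 to 11 and 5 to 7 for organoid minus progenitor, 3 to 4 and 23 to 25 for organoid minus tissue, 0 to 1 higher between regions in tissue, 0 to 1 higher and 0 to 2 lower in organoids, and 0 to 1 and 0 to 2 lower in the region dependence of progenitor minus tissue and of organoid minus progenitor. A group left with 1 array was assumed to vary like the others. The 1 or 2 calls gained came without medulla organoid replicate 1 or 2. The cause was not tested.

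Equal replicate numbers did not deviate together: the correlation of replicate differences was -0.14 between cortex and medulla tissue, -0.11 between the progenitor groups and -0.05 to 0.06 otherwise. With the replicate block 2 members were higher and 25 lower for progenitor minus tissue, 8 and 6 for organoid minus progenitor and 4 and 24 for organoid minus tissue, and no other call than that of Mrc1 was lost (adjusted p = 0.0514). Crossed numbers, added after seeing the data, gave 0 calls between regions in tissue and in progenitor cells. MAS5 signals without detection calls limit what can be said of genes below log2 3.92.

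Counts of calls over all genes between regions moved by over 1.5 times with the settings. With the compared groups alone they went from 44 to 1 in tissue, from 41 to 145 in progenitor cells, from 2341 to 240 in organoids, from 37 to 71 for the region dependence of progenitor minus tissue and from 535 to 266 for that of organoid minus progenitor. Without a variance trend the count in tissue was 21 and that of the region dependence of progenitor minus tissue 23. An offset of the median signal gave 63 in progenitor cells, and in tissue the mean filter gave 29 and the mean of all probe sets 25. Leaving out 1 array gave 14 to 229 in tissue (229 without medulla tissue replicate 2), 13 to 105 in progenitor cells, 1060 to 4316 in organoids (4316 without medulla organoid replicate 2), and 11 to 122 and 124 to 2509 for the region dependences. Among all probe sets 16687, 17360 and 19222 of 24203 were called in the 3 stage comparisons, against 9477, 9428 and 10389 of 13037 genes.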
